A study of Mus musculus with 4 samples.

Results

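The spots described here are those richest in RNA of the Reg proteins in 4 sections of inflamed mouse pancreas, 1200 spots among the 26960 spots with at least 500 UMIs. A UMI, or unique molecular identifier, marks 1 captured molecule. Each spot was scored by its summed UMIs of Reg1, Reg2, Reg3a, Reg3b, Reg3d and Reg3g divided by its total UMIs. In each section the 300 highest-scoring spots with at least 3 UMIs of these genes were taken as members. The members were thus chosen by their measured Reg values, so the levels of these 6 genes in members and in the other spots are a description and carry no test. A spot is a small region of tissue that can hold several cells or part of one, and it is not a cell type.

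All 4 mice were on a C57Bl/6 background, carried Pdx1-Cre, a Cre transgene that recombines in the pancreatic epithelium, and were 4 weeks old. They received caerulein, which mimics cholecystokinin and overstimulates acinar cells until the gland inflames, at 50 μg/kg in 8 hourly injections after a fast of 12 h, and tissue was taken 18 h after the first dose. The sections labelled wild type (Pdx1-Cre;Ehmt2 +/+, n = 2) were compared with the sections labelled knockout (Pdx1-Cre;Ehmt2 fl/fl, n = 2), in which the epithelium loses Ehmt2, a histone H3 lysine 9 methyltransferase, while other cells of the organ keep it. The fixed tissue was profiled with the CytAssist Visium assay, in which probes to each gene are hybridized in the section and moved to a slide with barcoded spots. The labels give each section its own animal number.

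Ehmt2 itself had 58 UMIs in the members of Ehmt2 +/+ replicate 1, 1 UMI in those of Ehmt2 +/+ replicate 2, and 3 and 2 UMIs in those of Ehmt2 fl/fl replicates 1 and 2. These correspond to 26.6, 3.78, 8.15 and 5.19 CPM (counts-per-million, the UMIs of a gene scaled to all UMIs outside the 6 Reg genes), so the members of the genotypes overlapped. Whether the probes lie in the deleted part of Ehmt2 is not given in the sources used here, so these values check nothing. Eif2s3y, a gene of the Y chromosome, had 16.3 and 18.2 CPM in the Ehmt2 fl/fl members. It had 0 UMIs in the Ehmt2 +/+ members, where a count of 0 allows up to 1.38 and 11.4 CPM. The Y-linked genes Ddx3y, Kdm5d and Uty likewise had UMIs in the members of at least 1 Ehmt2 fl/fl section and none in those of Ehmt2 +/+, and Xist was at 0 in all sections. Whether the probe set can report Xist is not given in the sources used here, so its 0 says nothing on sex. Genotype and the presence of Y-linked RNA cannot be told apart in these 4 sections.

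One library stood apart. Ehmt2 +/+ replicate 1 held 43784930 UMIs in its spots with at least 500 UMIs, against 7845575 in Ehmt2 +/+ replicate 2 and 6643747 and 7938386 in Ehmt2 fl/fl replicates 1 and 2. Its members had a median of 6227 UMIs, against 875, 1237 and 1096. The 1135 olfactory receptor genes, which the pancreas is not known to use and which served as a background level, averaged 0.268 CPM per gene in its members, against 3.25, 4.56 and 6.91. Counts over all genes past a test are therefore given below with and without this section, while counts by gene list are given only with it. The sections lay on 2 slides, each with 1 section of each genotype. The same set of barcodes served every slide, and between 4 and 23 of the 300 member barcodes recurred between a pair of sections.

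Regenerating islet-derived (Reg) proteins are small secreted C-type lectins. In the pancreas they are made mainly by acinar cells, the enzyme-secreting cells of the exocrine gland, and they are known to be induced strongly by pancreatitis. Reg1 belongs to the type I group, first described for growth effects on islets. Reg3a, Reg3b, Reg3d and Reg3g belong to the type III group, of which Reg3b was described as pancreatitis-associated protein and Reg3g as an intestinal lectin that kills Gram-positive bacteria.

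All 6 genes lie side by side within 98216 bases of chromosome 6 (GRCm38 chr6:78370657-78468872), in the order Reg3b, Reg3d, Reg3a, Reg2, Reg1 and Reg3g. The 60 bases before each start are shown because the score sums neighbouring genes, and their starts differ in sequence. The sequences are those of RefSeq on GRCm38.p6, 5′ to 3′ on the strand of the gene, and capitals mark TATAAA, the core of a TATA box, the element near which transcription of many highly expressed secretory genes starts.
Reg1, chr6:78425923-78425982, plus strand: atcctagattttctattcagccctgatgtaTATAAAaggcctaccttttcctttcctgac
Reg2, chr6:78405095-78405154, plus strand: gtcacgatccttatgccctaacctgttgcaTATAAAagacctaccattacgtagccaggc
Reg3a, chr6:78380649-78380708, plus strand: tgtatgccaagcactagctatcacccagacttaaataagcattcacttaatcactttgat
Reg3b, chr6:78370825-78370884, plus strand: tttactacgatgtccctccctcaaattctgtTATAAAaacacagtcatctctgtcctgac
Reg3d, chr6:78378866-78378925, minus strand: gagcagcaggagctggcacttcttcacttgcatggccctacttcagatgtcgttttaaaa
Reg3g, chr6:78468875-78468934, minus strand: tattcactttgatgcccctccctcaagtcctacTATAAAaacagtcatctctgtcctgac
TATAAA was present on the gene's strand in 4 of the 6 windows, beginning 30 bases before the start of Reg1 and of Reg2, 29 before that of Reg3b and 27 before that of Reg3g. It was found on the gene's strand in 2.87% of the 32851 such windows of all promoters, and on either strand in 3.92%. The windows of Reg3a and Reg3d held none on either strand, which says only that these letters are not there. Reg3b and Reg3g shared the run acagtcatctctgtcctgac of 20 bases up to their starts, the longest run shared by any pair.

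In members the 6 genes held 4.94% of all UMIs in Ehmt2 +/+ replicate 1, 6.31% in Ehmt2 +/+ replicate 2, 3.16% in Ehmt2 fl/fl replicate 1 and 2.65% in Ehmt2 fl/fl replicate 2. In the other spots of the same sections they held 3.63%, 3.63%, 1.13% and 0.865%. Members thus exceeded the other spots 1.36-fold and 1.74-fold in Ehmt2 +/+ and 2.81-fold and 3.06-fold in Ehmt2 fl/fl. The members of Ehmt2 fl/fl had a lower Reg share than the ordinary spots of Ehmt2 +/+, so "Reg-rich" is relative to the section.

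The members did not form a separate group of spots. The plot of Reg share by spot shows 1 continuous distribution per section, and the last member and the first spot left out had scores of 4.63% and 4.63%, 5.80% and 5.80%, 2.64% and 2.64%, and 2.05% and 2.05% in Ehmt2 +/+ replicates 1 and 2 and Ehmt2 fl/fl replicates 1 and 2. At these depths a single score is loose. The last member of Ehmt2 fl/fl replicate 2 had 24 Reg UMIs of 1171, with an exact 95% Clopper-Pearson interval from 1.32% to 3.03%, and the last member of Ehmt2 +/+ replicate 1 had 415 of 8963, with an interval from 4.20% to 5.09%. These intervals cover counting error only.

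**Figure D1:**
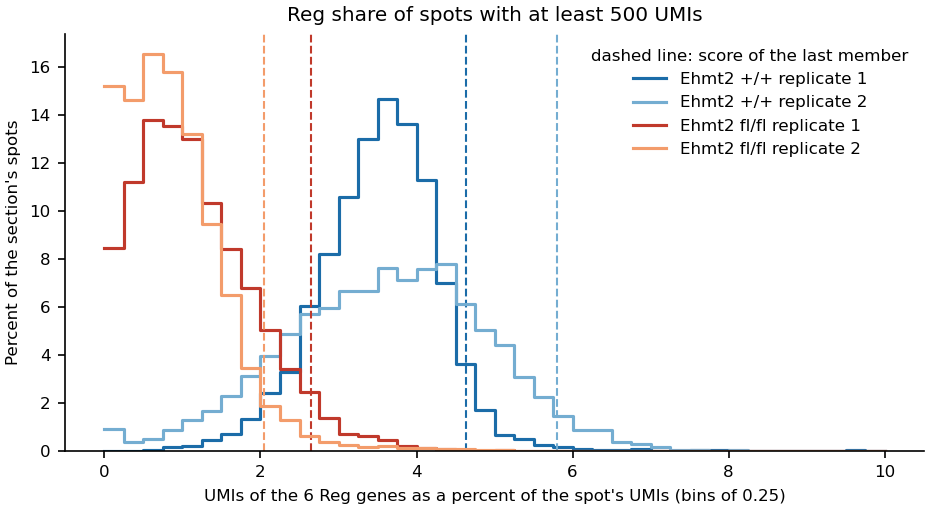
Percent of each section's spots with at least 500 UMIs (y axis) by the share of UMIs from the 6 Reg genes (x axis, bins of 0.25 percentage points), 1 line per section. Dashed lines mark the score of the last of 300 members, from 2.05% in Ehmt2 fl/fl replicate 2 to 5.80% in Ehmt2 +/+ replicate 2, on the upper slope of each distribution.

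Since a high score can come from counting error, the UMIs of every spot were also divided at random into 2 sets, members were chosen on the first and measured on the second. In the second set the members held 4.74% and 5.13% Reg UMIs in Ehmt2 +/+ and 2.69% and 2.26% in Ehmt2 fl/fl, against 3.65%, 3.68%, 1.16% and 0.888% in the other spots. The excess of members was thus 1.30-fold, 1.39-fold, 2.32-fold and 2.54-fold in UMIs that had no part in the choice. It was smaller in every section than in the set that chose them, where it was 1.40-fold, 1.88-fold, 3.02-fold and 3.29-fold. Of the spots chosen on the first set, 67.0%, 56.3%, 68.7% and 71.0% were also members by the full count.

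Reg1 made up most of the score. It was the leading Reg gene in each of the 1200 members and gave 75.6%, 86.3%, 81.7% and 83.6% of their Reg UMIs. Its level in members was 37327 CPM, here scaled to all UMIs, in Ehmt2 +/+ replicate 1, 54479 in Ehmt2 +/+ replicate 2, 25837 in Ehmt2 fl/fl replicate 1 and 22127 in Ehmt2 fl/fl replicate 2. In the other spots it was 27073, 30669, 9440 and 7558. Reg1 was therefore higher in both Ehmt2 +/+ sections than in both Ehmt2 fl/fl sections, in members as in other spots.

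Reg2 had 2364, 1627, 618 and 538 CPM of all UMIs in members, in the same order of sections, and 1933, 992, 165 and 102 in other spots. Its levels did not overlap between genotypes, and members exceeded other spots in all 4 sections. Reg3b, the second largest part of the score in the members of every section, had 5848, 4942, 2518 and 1994 CPM in members and 3933, 3134, 628 and 350 in other spots. It too was lower in both Ehmt2 fl/fl sections.

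In members, the other type III genes did not all follow this order, while in the other spots all 3 were lower in both Ehmt2 fl/fl sections. Reg3a had 2335 and 908 CPM in Ehmt2 +/+ members and 1565 and 1023 in Ehmt2 fl/fl members, so the genotypes overlapped, against 2111 and 805 and 651 and 373 in the other spots. Reg3g had 790 and 776 in Ehmt2 +/+ members and 729 and 536 in Ehmt2 fl/fl members, close together in 3 of the 4 sections, against 587 and 474 and 248 and 167 in the other spots. Reg3d had 728, 362, 353 and 253, with Ehmt2 +/+ replicate 2 next to Ehmt2 fl/fl replicate 1, and 614, 267, 127 and 105 in the other spots. Reg4, on chromosome 3 and not part of the score, had 0, 1, 3 and 2 UMIs in members.

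**Figure D2:**
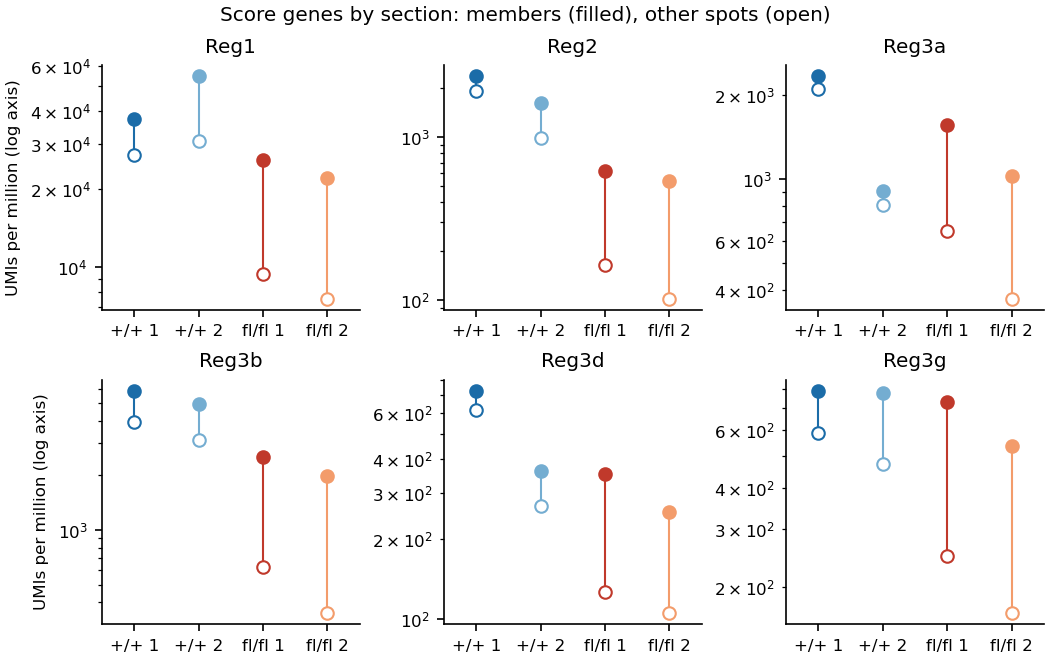
CPM of all UMIs (log axis) of the 6 score genes in members (filled) and in other spots (open) of each section, joined by a line. Members, chosen on the sum of these genes, lie above other spots for each gene in each section, and the lines are longer in Ehmt2 fl/fl, as for Reg2 (618 against 165 in replicate 1).

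The score mixes genes that did not mark the same spots equally. Choosing 300 spots per section on Reg1 alone gave 73.3%, 79.7%, 80.0% and 85.7% of the members. Choosing on the other 5 genes gave 33.0%, 20.3%, 44.7% and 45.7% of them, and the Reg1 list shared 17.0%, 7.67%, 29.0% and 34.7% of its spots with the list of the other 5 genes. The choice on Reg1 alone was added after seeing the data, and it leaves the other 5 genes free of the rule. In the spots chosen on Reg1 alone, in CPM of all UMIs but those of Reg1, Reg3b had 5338, 4149, 2078 and 1779 against 4088, 3273, 666 and 367 in the other spots. Reg3a had 2184, 725, 1338 and 840 against 2183, 839, 674 and 386, so it was about level in Ehmt2 +/+ and about 2-fold higher in Ehmt2 fl/fl, at ratios of 1.0, 0.864, 1.99 and 2.17. None of the 5 genes passed the test over sections. Except where a fit without TMM is named, log2 differences from fits given here and below carry TMM factors, which rescale libraries for composition. The CPM values carry no such factors, so a fitted difference is not the ratio of the printed CPM. The log2 differences from edgeR's quasi-likelihood test were 1.44 ± 0.44 (SE, adjusted p = 0.412) for Reg2, 1.47 ± 0.54 (adjusted p = 0.548) for Reg3b, 1.09 ± 0.35 (adjusted p = 0.458) for Reg3g, 0.94 ± 0.34 (adjusted p = 0.507) for Reg3d and 0.79 ± 0.43 (adjusted p = 0.796) for Reg3a.

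Measured by genes outside the score, the members were exocrine tissue. The 37 genes of the digestive enzyme list, acinar products that include the granule proteins Sycn and Zg16, held 65.3%, 59.5%, 41.3% and 40.9% of all UMIs in members. In other spots they held 64.7%, 54.1%, 21.6% and 21.0%. Members and other spots were thus close in Ehmt2 +/+ and about 2-fold apart in Ehmt2 fl/fl. Ctrb1, chymotrypsinogen and the most abundant of them, had 355209, 321276, 272184 and 273485 CPM, again outside the 6 Reg genes, in members and 368586, 309100, 139862 and 135501 in other spots. In a spot, more cells of a type and more RNA per cell cannot be told apart.

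Because the enzymes take so large a share, levels of all other genes were also scaled to the UMIs outside both the Reg and the enzyme genes. The median ratio of members to other spots, over genes with at least 200 UMIs in the section, was 0.955, 0.874, 0.710 and 0.686 with the enzymes in the total and 1.0, 1.05, 0.968 and 0.932 without them. A ratio below 1 on the first scale in Ehmt2 fl/fl is therefore the rule for any gene that did not move with the enzymes. Of 2901 genes with at least 20 CPM in members or other spots of every section, 3.83% were higher and 33.4% lower in members in all 4 sections on the first scale, and 16.9% higher and 6.96% lower on the second.

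Against that background, 22 of the 26 enzyme genes at this level were higher in members in all 4 sections and 0 were lower. Cela2a, a pancreatic elastase, had 76839 and 81310 CPM in Ehmt2 +/+ members against 71356 and 64983 in other spots. In Ehmt2 fl/fl it had 20524 and 21540 in members against 7190 and 6208, ratios of 2.85 and 3.47, the members still below every Ehmt2 +/+ section. Rnase1, the secreted pancreatic ribonuclease, had 3558, 2403, 1016 and 870 in members and 2484, 1734, 374 and 313 in other spots. Rnase1 was higher in members in all 4 sections, and its log2 difference of 1.28 ± 0.45 (SE) did not pass the test (adjusted p = 0.576).

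Genes of the zymogen granule, in which acinar cells store enzymes, and the mixed list of antimicrobial proteins and lectins were higher in members as sums, which a few abundant genes carry. In the members of Ehmt2 fl/fl replicates 1 and 2, 5 and 6 of the 16 granule genes and 6 and 6 of the 19 antimicrobial genes were higher. The median log2 differences of the 2 lists were 0.03 and -0.25, beside 0.84 for the enzymes and -0.21 for all genes. The summed granule list stood at 1.14, 1.13, 1.84 and 1.88 times its level in other spots, and 4 of its 6 genes at 20 CPM were higher in all 4 sections. Gp2, the main membrane glycoprotein of the granule, had 6910, 3425, 2676 and 3133 CPM in members and 6045, 2983, 1472 and 1629 in other spots. Dmbt1, a secreted scavenger receptor that binds bacteria, had 3625, 674, 660 and 478 against 2962, 587, 302 and 193. The antimicrobial list stood at 1.01, 1.20, 1.75 and 1.72, and it includes Zg16, a lectin of the granule itself. None of the 16 and 17 genes of these lists that could be tested passed the test in this comparison.

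Transcription factors and other genes of acinar identity were at ratios of 1.09, 1.05, 1.11 and 1.33. Xbp1, which drives the secretory apparatus, had 453, 250, 217 and 275 CPM in members and 415, 243, 152 and 135 in other spots. Without Xbp1 the list was at 1.09, 1.07, 0.908 and 0.927, so this gene set its direction in Ehmt2 fl/fl, where 4 of the 10 genes were higher in each section. The list of acinar injury genes was at ratios of 0.933, 1.02, 1.24 and 1.34, and without Clu at 1.04, 1.04, 0.899 and 0.948. In Ehmt2 fl/fl replicates 1 and 2, 9 and 10 of its 32 genes were higher, and its median log2 difference was -0.03. The sums without Xbp1 and without Clu were added after seeing the data. Its most abundant gene, Clu, a secreted chaperone raised in injured epithelium, had 13546, 11318, 17315 and 14554 in members and 15078, 11130, 11824 and 8917 in other spots, lower in members of Ehmt2 +/+ replicate 1 and higher in the other sections. Duct genes were level with the enzymes in the total, at 0.983, 0.982, 0.963 and 1.06, and above 1 without them, at 1.03, 1.18, 1.31 and 1.44.

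Stress and inflammatory lists were lower or level depending on the scale. Genes of ER stress were at 0.955, 0.878, 0.733 and 0.790 with the enzymes in the total and at 1.0, 1.06, 0.998 and 1.07 without them. The acute phase list was at 1.0, 0.826, 0.618 and 0.648, or 1.05, 0.992, 0.842 and 0.881 without enzymes. Genes of IL-6 family signalling, the pathway through which Reg genes are known to be induced, were at 0.963, 0.840, 0.660 and 0.697, or 1.01, 1.01, 0.900 and 0.947. The immediate early list was at 0.849, 0.792, 0.832 and 0.881 and turned above 1 in Ehmt2 fl/fl without enzymes, at 1.13 and 1.20. None of the 23, 23, 33 and 20 genes tested in these lists passed.

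Except for the small intestine list, the lists of other cell types were below the other spots in at least 3 of the 4 sections, and the olfactory receptor genes were in all 4. The small intestine list stood at 1.04, 1.22, 1.93 and 1.94 with Zg16, which acinar cells also make, and at 1.24, 0.670, 0.511 and 0.573 without it. The summed olfactory receptor genes stood at 0.933, 0.601, 0.504 and 0.527 with the enzymes in the total. The macrophage list stood at 0.715, 0.899, 0.457 and 0.513, with Cd74 as its most abundant gene at 76, 27, 131 and 95 UMIs in members, and at 175, 404.9, 1508 and 1080 CPM in members over its 16 genes. The fibroblast and matrix list stood at 0.696, 0.702, 0.544 and 0.497, and Col1a2, a collagen chain, had 98.8, 140, 440 and 402.3 CPM in members against 157, 248, 1014 and 1033 in other spots. In Ehmt2 fl/fl these lists were near the ratio of the olfactory receptor genes and below the all-gene medians of 0.710 and 0.686, at 67.5 to 114 CPM per gene in members against 4.56 and 6.91 for the olfactory receptor genes. The neutrophil list had only 14, 16, 44 and 52 UMIs in members over 12 genes and the lymphoid list 40, 31, 66 and 70 over 18.

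Islet genes were lower in members than the background genes. The beta cell list stood at 0.108, 0.494, 0.171 and 0.444, and the list of other islet genes at 0.133, 0.50, 0.316 and 0.481, below the olfactory receptor genes in each section. The mesothelium list was also below them in each section, at 0.531, 0.241, 0.477 and 0.471, on 7, 3, 15 and 20 UMIs in members. In Ehmt2 fl/fl replicate 2 the lymphoid, fat and blood lists, at 0.373, 0.354 and 0.373, were lower than both islet lists. Ins2, one of the insulin genes, had 53.3, 212, 698 and 226 CPM in members against 587, 394, 4421 and 471 in other spots. Chga, a granin of endocrine granules, had 10.1, 34.1, 101 and 51.9 against 151, 106, 396 and 123. Sst, somatostatin, had 3.68, 15.1, 2.72 and 7.79 against 27.5, 40.5, 38.9 and 24.2. All 3 genes were lower in members in all 4 sections.

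**Figure D3:**
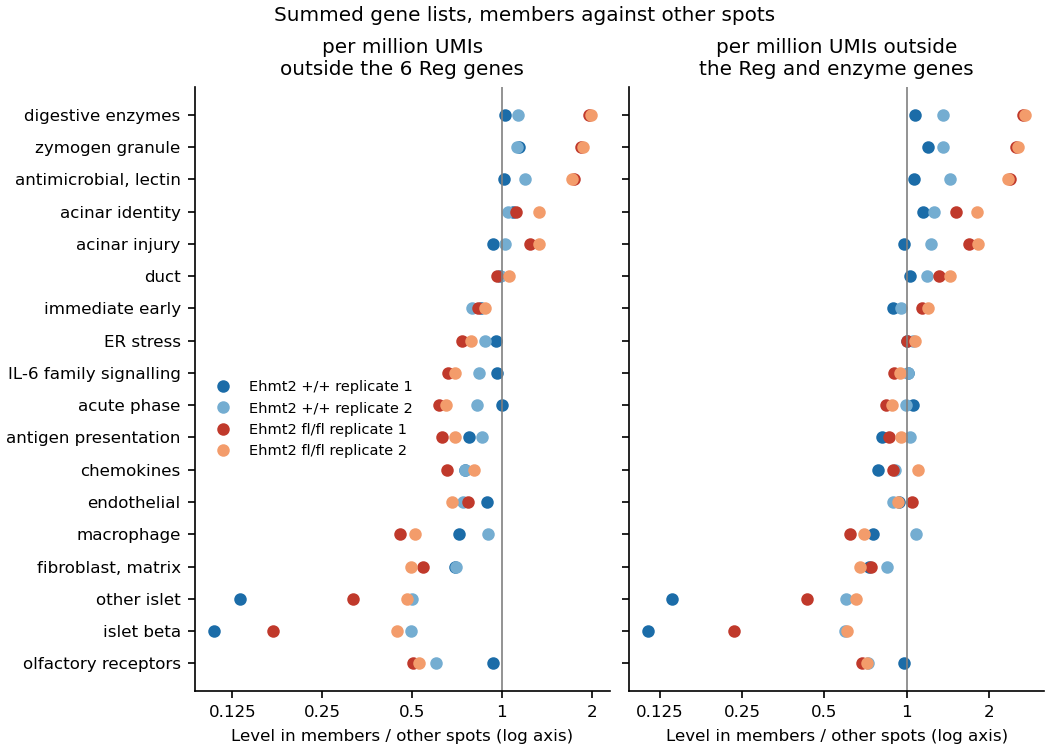
Ratio of the summed level in members to that in other spots (log axis) for 18 gene lists in each section, scaled to UMIs outside the 6 Reg genes (left) and outside the Reg and enzyme genes (right). The islet beta list reaches down to 0.108 in Ehmt2 +/+ replicate 1, and the enzyme list reaches 1.95 and 1.99 in Ehmt2 fl/fl on the left.

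Along the order of spots by Reg share the lists changed over several bins, as the plot of gene lists by rank shows. The enzymes declined from bin to bin in Ehmt2 fl/fl and were nearly flat over the first 4 bins in Ehmt2 +/+. In Ehmt2 fl/fl replicate 1 the enzymes had 426163 CPM in ranks 1 to 300, 375324 in the next 300 spots, 328845 in the next 600, 286728 in the next 1200 and 163339 in the remaining 4083 spots. In Ehmt2 +/+ replicate 1 the same bins had 686747, 687342, 689016, 684434 and 659607. The beta cell list had 108, 179, 233, 343 and 1598 CPM in Ehmt2 +/+ replicate 1 and 1155, 1939, 2342, 3025 and 9106 in Ehmt2 fl/fl replicate 1. In Ehmt2 fl/fl replicate 2 it had 408, 436, 492, 633 and 1141. Its rise was not steady in Ehmt2 +/+ replicate 2, at 344, 360, 293, 429 and 831.

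**Figure D4:**
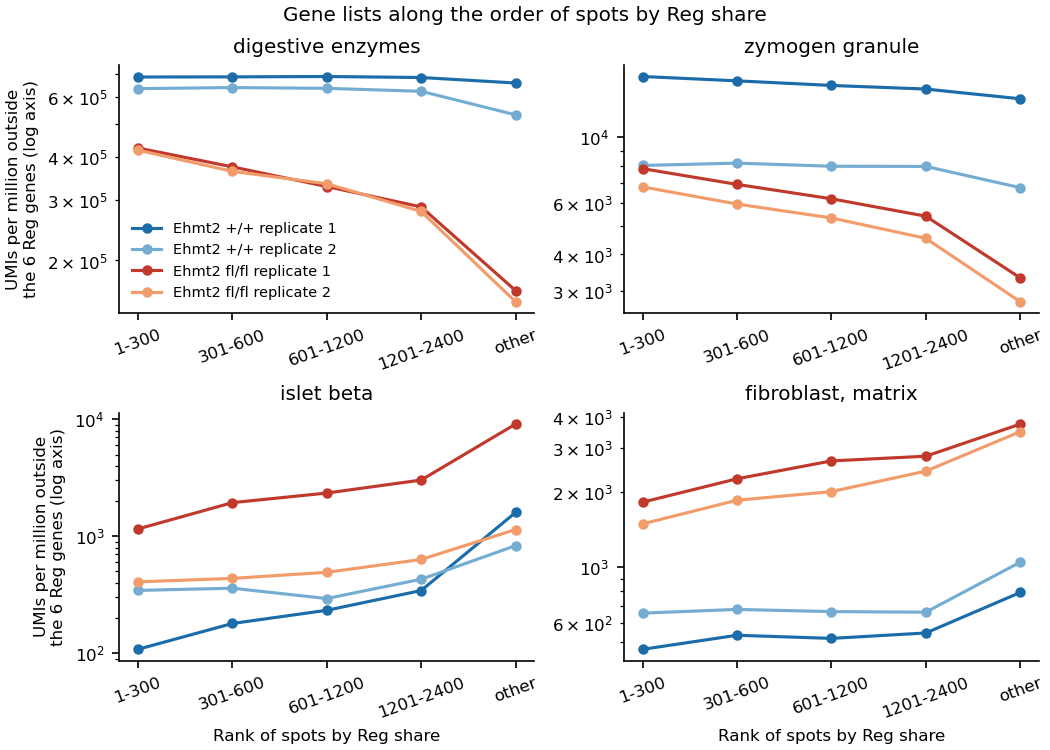
Summed levels of 4 gene lists (CPM outside the 6 Reg genes, log axis) in bins of spots ordered by Reg share, 1 line per section. The last bin holds all remaining spots. Enzymes decline from 426163 to 163339 in Ehmt2 fl/fl replicate 1 and stay between 659607 and 689016 in Ehmt2 +/+ replicate 1.

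Over sections, the test of members against other spots (edgeR's quasi-likelihood test with the section as a block, adjusted p under 0.05) covered 20005 genes outside the score. The 6 Reg genes and 12 others that take over 1% of a section's UMIs, enzymes, Zg16 and Clu, were not tested. Of the tested genes 14 were lower (0.07%) and 1 was higher (0.005%) in members, and the median log2 difference of all of them was -0.21. Among the 14 were 9 endocrine genes, namely Ins1, Ins2, Iapp, Chga, Chgb, Sst, Ttr, Pcsk1n and Syt13. Pcsk1n and Syt13 are in no list and are known from endocrine cells. The other 7 are 3 of the 10 genes tested of the beta cell list and 4 of the 13 of the other islet list, whose median log2 differences were -1.21 and -1.22. Iapp, islet amyloid polypeptide, fell by 2.25 ± 0.34 (SE) on the log2 scale (adjusted p = 2.97e-07), Ins2 fell by 1.70 ± 0.36 (adjusted p = 0.00533) and Chga fell by 1.94 ± 0.32 (adjusted p = 6.47e-06). Without Ehmt2 fl/fl replicate 1 none of the 9 endocrine genes passed, with log2 differences of -2.33 for Iapp (adjusted p = 0.158), -2.18 for Chga (adjusted p = 0.214) and -1.56 for Ins2 (adjusted p = 1.0). Ins2 also did not pass without Ehmt2 +/+ replicate 2 (adjusted p = 0.264) or without Ehmt2 fl/fl replicate 2 (adjusted p = 0.146). Without Ehmt2 +/+ replicate 1, the section that stood apart in depth, the log2 differences were smaller, at -1.53 for Iapp, -1.12 for Chga and -1.10 for Ins2, and Chgb (adjusted p = 0.432) and Ttr (adjusted p = 0.615) did not pass. DESeq2 gave an adjusted p for 1377 genes, among them 4 of the 15. Iapp and Ins1 passed and Ins2 (adjusted p = 0.0984) and Chga (adjusted p = 0.0753) did not.

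The remaining 5 genes lower in members were low in count. Ighj1, Igkc and Ighm, parts of immunoglobulin genes expressed by cells of the B lineage, had 3, 2, 4 and 7, 3, 1, 3 and 4, and 3, 0, 5 and 4 UMIs in members. Ighj1 had 1.38, 38.7, 150 and 570 CPM in other spots against 1.38, 7.57, 10.9 and 18.2 in members, so Ehmt2 +/+ replicate 1 showed no difference. Alox15, a lipoxygenase of macrophages and eosinophils, had 0, 0, 2 and 1 UMIs in members against 0.775, 21.0, 48.4 and 101 CPM in other spots. Car3, a carbonic anhydrase abundant in fat, had 1.84, 3.78, 13.6 and 38.9 CPM in members against 3.43, 34.0, 67.8 and 178. Rhox5, an X-linked homeobox gene and the single gene higher in members, had 1, 1, 28 and 15 UMIs in members, at 76.1 and 38.9 CPM in Ehmt2 fl/fl against 35.2 and 19.9 in other spots. Its log2 difference was 1.68 ± 0.32 (SE, adjusted p = 0.000325). The difference of Rhox5 was smaller, and did not pass, in other fits. It was 0.66 (adjusted p = 0.844) with spots limited to the members' quartiles of UMIs. With 150 members per section it was 1.12 (adjusted p = 0.537), and without TMM factors 1.06 (adjusted p = 0.0640). Ighj1, Igkc, Alox15, Syt13 and Rhox5 were singled out after their values were seen. Without Ehmt2 +/+ replicate 1 the counts were 297 higher and 52 lower, without Ehmt2 +/+ replicate 2 they were 1 and 9, without Ehmt2 fl/fl replicate 1 they were 0 and 2 (Ighj1 and Alox15), and without Ehmt2 fl/fl replicate 2 they were 0 and 5. Without TMM factors they were 31 and 1085, with a median log2 difference of all genes of -0.52.

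Members of Ehmt2 fl/fl were then compared with members of Ehmt2 +/+, outside the Reg genes. Of 3712 genes tested 80 were higher (2.16%) and 54 lower (1.45%) in Ehmt2 fl/fl members, with a median log2 difference of -0.02. The balance turned in other fits, with 44 higher and 56 lower by DESeq2, 34 and 47 without the filter on low counts, 70 and 98 without Ehmt2 +/+ replicate 1 and 583 and 976 without Ehmt2 +/+ replicate 2. With the slide, which holds 1 section of each genotype, as a block, 178 were higher and 129 lower, and 131 of the 134 calls were shared. Enzyme genes made up a large part of the lower ones. Of the 27 enzyme genes tested 18 were lower and 2 higher, with a median log2 difference of -1.94. They include genes over 1% of a section's UMIs, which weigh in the denominator of the score that chose the members. Among the 16 enzyme genes not over 1%, 8 were lower and 2 higher, with a median of -1.94. The TMM factors were 0.694 and 0.806 for the Ehmt2 +/+ members and 1.36 and 1.31 for the Ehmt2 fl/fl members, so that fitted falls are larger, and fitted rises smaller, than the CPM values show. Pnlip, pancreatic lipase, had 7238 and 2683 CPM in Ehmt2 +/+ members and 1062 and 672 in Ehmt2 fl/fl members, and the fitted value fell by 3.41 ± 0.53 (SE) on the log2 scale (adjusted p = 0.0109). It fell by 2.52 without TMM, by 2.41 without Ehmt2 +/+ replicate 1 and by 4.13 without Ehmt2 +/+ replicate 2. Clps, the colipase it needs, had 2551 and 2168 against 513 and 537, and the fitted value fell by 3.02 ± 0.32 (adjusted p = 0.00398), or by 2.17 without TMM. Cela2a fell by 2.75 ± 0.26 (adjusted p = 0.00265).

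The 2 enzyme genes that were higher were trypsinogens. Prss1 had 698 and 643 CPM in Ehmt2 +/+ members and 5847 and 5412 in Ehmt2 fl/fl members, and the fitted log2 difference, scaled by TMM, was 2.22 ± 0.30 (SE, adjusted p = 0.00622). Gm5771, a trypsinogen-like gene, had 70.3 and 64.3 against 429 and 353. Prss2, another trypsinogen, had 12098 and 8919 against 5358 and 4156, and the fitted value, scaled by TMM, fell by 2.0 ± 0.32 (adjusted p = 0.0124). These genes are near copies of each other, so how probes divide UMIs among them is uncertain.

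Other genes lower in Ehmt2 fl/fl members were Chst2, a sulfotransferase, at 91.9 and 83.3 CPM against 19.0 and 10.4, and Pdcd4, an inhibitor of translation, at 233 and 106 against 38.0 and 41.5. The fitted value of Pdcd4 fell by 3.03, or by 2.18 without Ehmt2 +/+ replicate 1 and by 2.15 without TMM. Hist1h2bc, a histone gene, was at 136 and 30.3 against 27.2 and 12.98 (adjusted p = 0.0499, or 0.653 without Ehmt2 +/+ replicate 1), with Ehmt2 +/+ replicate 2 nearer to the Ehmt2 fl/fl sections than to the other Ehmt2 +/+ section. Rbpjl, a subunit of the acinar transcription factor PTF1, was the single acinar identity gene of 7 tested that passed, at 108 and 56.8 against 27.2 and 31.1. Of the zymogen granule list Cuzd1 fell and the other 5 genes tested did not pass. Of the 18 ER stress genes tested Edem1, a factor of protein degradation in the ER, was lower. Over all genes tested 1.45% were lower in Ehmt2 fl/fl members.

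The 5 genes with the largest positive differences, Gm21310, Gm21118, Gm20825, Gm20854 and Gm20914, all lie on the Y chromosome. Gm21310 had 0 UMIs in the Ehmt2 +/+ members and 196 and 441 CPM in the Ehmt2 fl/fl members (adjusted p = 0.00451). They are near-identical copies, and their difference follows the Y-linked RNA of the sections described above.

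Counts by list follow, beside 2.16% of all genes tested that were higher and 1.45% that were lower in Ehmt2 fl/fl members. Of the 25 acinar injury genes tested 5 were higher, Cldn18, Mmp7, S100a10, Cd44 and Lcn2, and 1 was lower, Tff2, a trefoil peptide. Cldn18, a claudin of stomach and lung epithelium, had 2 and 0 UMIs in Ehmt2 +/+ members and 185 and 156 CPM in Ehmt2 fl/fl members. Mmp7, an epithelial matrix metalloproteinase, had 1.38 and 15.1 CPM against 288 and 337, a log2 difference of 5.56 ± 0.72 (SE, adjusted p = 0.00622). Of the 9 acute phase genes tested 4 were higher, Il1rn, Lcn2, Hp and Cfb, and Lrg1 was lower. Il1rn, the antagonist of the IL-1 receptor, had 25.3 and 68.1 against 788 and 652.

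Of 5 chemokines tested 3 were higher, Cxcl14, Cxcl5 and Ccl7. Cxcl14 had 13.3 and 30.3 CPM in Ehmt2 +/+ members and 329 and 358 in Ehmt2 fl/fl members. Of the 15 immediate early genes tested Fos and Ier3 were higher. Fos, a subunit of the AP-1 factor, had 1.38 and 0 CPM against 40.8 and 33.7, and Ier3, an immediate early survival gene, had 21.6 and 22.7 against 293 and 270. Of the 12 duct genes tested Tspan8, a tetraspanin, was higher, and of the 12 fibroblast and matrix genes Fn1, fibronectin. Of the 8 antimicrobial and lectin genes Lcn2 and Slpi were higher and Zg16, Ang and Tff2 lower. Of the 12 macrophage genes tested only Itgam, an integrin of myeloid cells, passed, and of the 12 IL-6 family signalling genes only Cebpd, a transcription factor of the acute phase response. Of the 9 antigen presentation and interferon genes and the 1 neutrophil gene tested 0 passed. The summed macrophage list in members was 175 and 404.9 CPM in Ehmt2 +/+ and 1508 and 1080 in Ehmt2 fl/fl, and its part in these results was not tested.

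**Figure D5:**
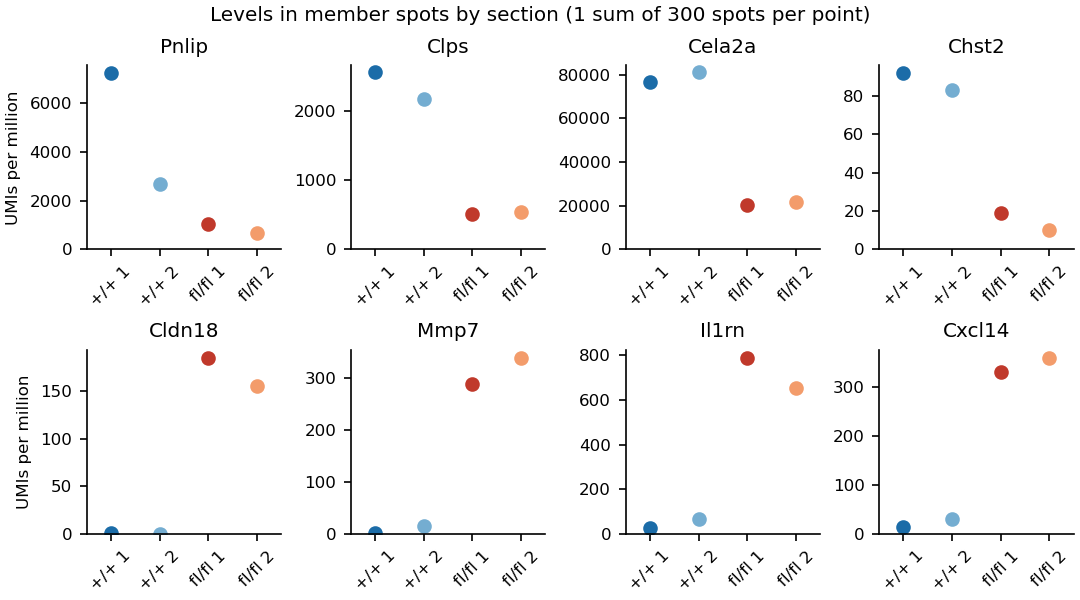
CPM outside the 6 Reg genes (y axes start at 0) of 8 genes in the members of each section, 1 point per section. In the upper row both Ehmt2 fl/fl sections lie below both Ehmt2 +/+ sections, and in the lower row they lie above, as for Il1rn (788 and 652 against 25.3 and 68.1).

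For the genes called in members, the order of the sections was also read in the other spots. In the other spots of the same sections both Ehmt2 fl/fl sections lay beyond both Ehmt2 +/+ sections in the same direction for 80 of the 80 genes higher and for 51 of the 54 lower, in the same mice. These genes had been called in members, and the share of all tested genes with such an order is not given here. The counts therefore have no background level. Without TMM factors 926 genes were higher and 36 lower, with a median log2 difference of 0.85 over all genes. Without Ehmt2 fl/fl replicate 1 the test called 18 genes, 16 higher and 2 lower, with Clps (adjusted p = 0.0610) and Pdcd4 (adjusted p = 0.106) among those lost. Without Ehmt2 fl/fl replicate 2 it called 51, 30 higher and 21 lower, and without Ehmt2 +/+ replicate 2 it called 1559, against 168 without Ehmt2 +/+ replicate 1. Each of these fits leaves 1 section in an arm, which is assumed to vary like the pair of the other genotype.

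Whether the difference between members and other spots itself differed between the genotypes was tested with the interaction of membership and genotype. Of 20005 genes 8 passed (0.04%), all with a higher value in Ehmt2 fl/fl, and 0 passed in the other direction (0.0%). They were Chga, Rab3d, Ano10, Echdc2, Cgref1, Nes, Serpinb9 and Dhrs13, and the median over all genes was itself 0.45 on the log2 scale. Without TMM factors 44 genes were higher and 48 lower, 5 of the 8 among those called, and the median over all genes was -0.36. That all calls went in 1 direction therefore depended on the TMM factors. Rab3d, a small GTPase of the zymogen granule, had 66.6 and 34.1 CPM in Ehmt2 +/+ members against 68.9 and 61.5 in other spots. In Ehmt2 fl/fl it had 109 and 104 in members against 72.8 and 53.5, above other spots in both sections. In Ehmt2 +/+ replicate 1 members and other spots were nearly level, at a ratio of 0.967, or 1.01 with the enzymes left out of the total, and the lower value of replicate 2 rests on 9 UMIs. The log2 difference of the differences was 1.87 ± 0.40 (SE, adjusted p = 0.0256). Without either Ehmt2 fl/fl section 0 genes passed, with 586 and 433 at an unadjusted p under 0.05, without Ehmt2 +/+ replicate 1 there were 65, and without Ehmt2 +/+ replicate 2 there were 1750, each with 1 section in an arm and the same assumption on its spread. With a slide term 5 of the 8 passed, and Cgref1, Dhrs13 and Serpinb9 did not.

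The 21 enzyme genes that could be tested in the interaction had a median log2 value of 1.09, beside 0.45 for all genes, and 0 of them passed. The wider gap between members and other spots in Ehmt2 fl/fl seen for the enzymes is thus a description of 2 sections against 2.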

How the data were processed

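UMI counts of 4 sections were analysed. The authors counted them with Space Ranger 2.0.1 (per the file headers) on mm10 with the mouse Visium probe set, and deposited raw counts per feature and spot. Of 32589 features, those marked as deprecated were left out, leaving 32285. The members, gene lists and tests were chosen with earlier results of these data known. Positions of spots were not used here, since the alignment files carry no barcodes. UMIs were summed over members and over other spots of each section, so that the section is the replicate, and tested by quasi-likelihood in edgeR 4.0.16 under R 4.3.3, after TMM scaling and filterByExpr (at least 10 UMIs), with Benjamini-Hochberg adjusted p under 0.05 as the threshold. The Reg genes entered neither library sizes nor tests, and genes over 1% of a section's UMIs had no test of members against other spots. P-values of the genotype test rest on the spread between 2 sections per genotype. Those of members against other spots rest on the spread of the differences over 4 sections. In each fit edgeR moderates the spread of a gene by that of the other genes. An exact two-sided permutation of 2 sections against 2 could not give a p below 0.333. Sections held 6643747 to 43784930 UMIs in used spots.

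Named genes were the Reg genes, Ehmt2, sex-linked genes, the 2 to 4 most abundant genes of each list and those past a test, up to 10 genes per direction past the test of members at 20 CPM or more, and 5 per direction in genotype tests. The 30 lists cover exocrine, islet, intestinal, stomach, stromal, immune, fat, blood and mesothelial markers and stress, signalling and proliferation genes. The lists for smooth muscle, endothelium, fat, blood, mesothelium, stomach, intestine without Zg16, proliferation, chemokines, antigen presentation and the Ehmt2 complex stood at member-to-other ratios from 0.241 to 1.56 in single sections. Of their genes only Car3 passed the test of members against other spots, and only Ccnd1, Cxcl5, Ccl7 and Cxcl14 the genotype test. Alternatives were DESeq2 1.42.0, library sizes without TMM or without enzymes, no filter, leaving out each section, other member choices and depths, no section block, and the slide as a block. The procedure was also run on simulated sums with known changes placed in them. Apart from those changes, the simulated sums that were compared shared 1 composition, so the run does not bear on the dependence on TMM. Sums and figures were made in Python 3.11.15 (pandas 2.3.3; matplotlib 3.10.9; SciPy 1.17.1 for intervals; NumPy 2.4.6).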

Additional observations from a re-analysis of the deposited data

Results flagged for a closer look

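In 8 genes the difference between members and other spots itself differed between the genotypes (edgeR's quasi-likelihood interaction test, adjusted p under 0.05), with a higher value in Ehmt2 fl/fl by 2.49 on the log2 scale for Chga, 1.87 for Rab3d, 1.99 for Ano10, 1.76 for Echdc2, 1.88 for Cgref1, 1.66 for Nes, 1.83 for Serpinb9 and 2.37 for Dhrs13. The median over all genes was 0.45, or -0.36 without TMM factors, where 44 genes were higher and 48 lower. For Chga the ratio of members to other spots was 0.0667 and 0.321 in Ehmt2 +/+ and 0.254 and 0.424 in Ehmt2 fl/fl, so the sections of the genotypes overlapped on this scale. In Ehmt2 +/+ replicate 2 members, Rab3d, Ano10 and Dhrs13 had 9, 1 and 2 UMIs.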

How the results depend on the processing

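All 33 genes followed through the alternatives, the 15 past the test of members, 10 past the genotype test and 8 past the interaction, kept their direction wherever they were tested. They had been picked for passing in these same sections, so a kept direction was close to fixed in advance. Over the genes and alternatives of the test of members, 129 fits still passed and 85 did not. The number of genes past a test was far less stable, and the cause was not tested. For members against other spots (1 higher, 14 lower) the counts were 89 and 8 with DESeq2, 31 and 1085 without TMM, 2 and 29 with members scored over UMIs other than enzymes, and 0 and 0 without the section block. The higher count was 0 with scores from thinned spots, with 150 members, with spots limited to the members' quartiles of UMIs and with members chosen on Reg1 alone, where the lower counts were 11, 11, 10 and 10, and they were 0 and 1 with spots thinned to 500 UMIs before summing. Leaving out 1 section gave 0 to 297 higher and 2 to 52 lower. Within members (134 genes) the test called 962 without TMM, 81 without the filter, 256 with members scored over UMIs other than enzymes, 85 with 150 members, 307 with the slide as a block and 18 to 1559 with 1 section left out. For the interaction (8 genes) it called 73 with DESeq2, 92 without TMM, 30 with members scored over UMIs other than enzymes, 199 with 150 members, 5 with a slide term, 0 with scores from thinned spots, 0 with thinned sums and 0 to 1750 with 1 section left out. The thinned sums, the choice on Reg1, the halved counts and the slide terms were chosen after seeing the data. Depth limits genes under about 10 CPM in the 3 shallower sections, where members sum to 282055, 380081 and 395721 UMIs.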
